A study of Mus musculus with 39 samples.

Results

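Tumours of clone yfp_2838c3, classed as T cell high, were compared with tumours of clone yfp_2699c4, classed as T cell low, by RNA sequencing of sorted tumour cells. The 8 libraries, 4 per clone, were picked by the clone and class in their labels from the 39 libraries of a series on mouse pancreatic tumours, in which no other clone had 4. For each clone, C57BL/6 mice received a subcutaneous implant of its cells, untreated tumours were removed after 3 weeks, and YFP-labelled tumour cells were sorted for RNA. The driver alleles of the tumour lines, their sex and the sex and age of the hosts are not used here. Each class is represented by a single clone, so a difference between the clones and a difference between the classes cannot be told apart. The number that ends each library name is called the tumour number, and figures leave out the prefix yfp of the clone names. Whether each library of a clone is from its own mouse is not stated, so p-values measure the spread between these libraries, which may be technical.

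Pancreatic ductal tumours differ in how many T cells enter them. Signals made by the tumour cells, among them chemokines that attract neutrophils and macrophages, prostaglandins, antigen presentation molecules and growth factors, are known to affect which immune cells come in. Because the cells were sorted before sequencing, the counts describe the tumour cells and whatever RNA came with them, and do not measure T cells. Tumour cell clones can also differ from each other by gain or loss of whole chromosomes, by the sex of the animal they came from, and by the developmental factors they express.

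Totals were 26866065 to 55997777 counts in yfp_2838c3 libraries and 7638130 to 37995745 counts in yfp_2699c4 libraries. Keratins of simple epithelium were abundant in all 8, with Krt8 at 1823 to 3322 CPM (counts scaled to a library total of 1e+06) in yfp_2838c3 and at 2099 to 3046 CPM in yfp_2699c4. The T cell receptor component Cd3e was at most 0.661 CPM in yfp_2838c3 and at most 0.714 CPM in yfp_2699c4.

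Heart muscle transcripts were present in some libraries of both clones. The sum of Myh6, Myh7, Myl2 and Mb was 3431, 0, 0 and 0 CPM in yfp_2838c3 tumours 1 to 4, against 1799, 4840, 0 and 0.203 CPM in yfp_2699c4 tumours 1 to 4. Thus yfp_2838c3 tumour 1 and yfp_2699c4 tumours 1 and 2 were above the limit of 10 CPM, and 3 libraries of yfp_2838c3 and 2 of yfp_2699c4 were below it. The 3 libraries above it also held the liver transcript Alb, at 4795 CPM in the yfp_2838c3 library and at 2658 and 6924 CPM in the yfp_2699c4 libraries.

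The libraries with heart transcripts resembled those of other clones. Across genes, log2 levels of yfp_2838c3 tumour 1 correlated most with a library of clone yfp_6419c1 (Pearson r = 0.981), and those of yfp_2699c4 tumour 2 most with a library of clone yfp_6620c1 (r = 0.996). Tumour 1 of yfp_2699c4 was closest to tumour 1 of yfp_2838c3 (r = 0.958). Each of the 5 libraries without heart transcripts was closest to another library of its own clone (r = 0.952 to 0.989). Genes are not independent replicates, so these values are descriptions. By rule, the comparison was made over all 8 libraries and again over the 5 without heart transcripts.

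In the 5 libraries without heart transcripts, traces of other cells differed between the clones. Alb was at 9.98 to 36.5 CPM in yfp_2838c3 and at 0.658 and 0.726 CPM in yfp_2699c4. Of the 4 liver markers tested, 3 were called higher in yfp_2838c3, beside 9.02% of all genes. The summed level of 11 macrophage markers was 248, 320 and 3310 CPM in yfp_2838c3 tumours 2, 3 and 4, against 243 and 444 CPM in yfp_2699c4 tumours 3 and 4. Thus yfp_2838c3 tumour 4 stood above the other 4 libraries, and 0 of the 11 macrophage markers passed the test. In bulk libraries, more cells of a type and more RNA per cell cannot be told apart. Of the 10 heart markers, Myh6 and Myl2 were at 0 in these 5 libraries, while Tnnt2 was at 13.96 to 104.2 CPM in yfp_2838c3 and at 242.3 and 248.4 CPM in yfp_2699c4. The part of these transcripts in the results below was not tested. Values without yfp_2838c3 tumour 4 are given for some lists. They do not remove such transcripts, since yfp_2838c3 tumours 2 and 3 also held macrophage markers and Alb.

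**Figure D1:**
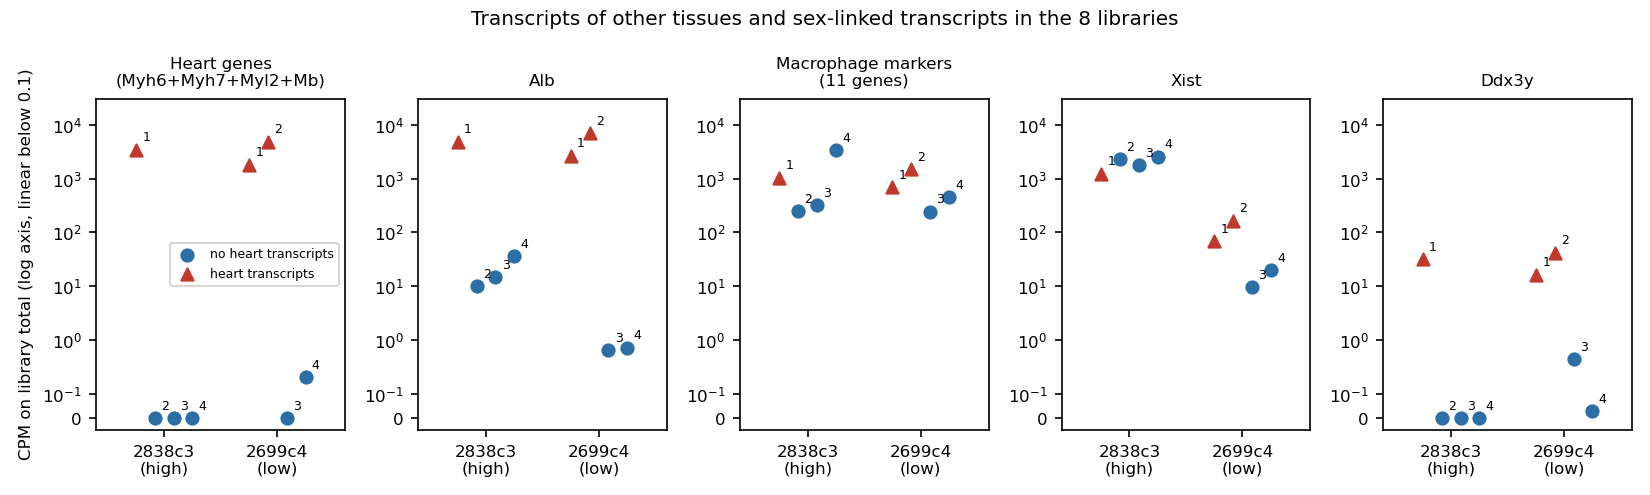
Levels in CPM (log axis, linear below 0.1) of 4 summed heart genes, Alb, 11 summed macrophage markers, Xist and Ddx3y, with 1 point per library, numbered by tumour. Triangles mark the libraries with heart transcripts, which also hold Alb at 2658 CPM or more and Ddx3y at 16.5 CPM or more, while Xist separates the clones in both kinds of library.

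Over all 8 libraries, 7 of 15780 genes tested were higher in yfp_2838c3 and 0 were lower, which is 0.0444% of genes in the higher direction (edgeR quasi-likelihood test, Benjamini-Hochberg adjusted p under 0.05). An unadjusted p under 0.05 was reached by 2758 genes, DESeq2 called 646 higher and 623 lower, and limma-voom called 0. The count rested on single libraries. It was 322 higher and 307 lower without yfp_2838c3 tumour 1, 411 higher and 737 lower without yfp_2699c4 tumour 2, and between 0 and 2 without any other single library.

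Over the 5 libraries without heart transcripts, 1423 of 15782 genes (9.02%) were higher in yfp_2838c3 and 1452 (9.2%) were lower. The median log2 fold change of the called genes was 1.65 for those higher and -1.04 for those lower. Changes of at least 8-fold (log2 of 3 or more) were found in 315 genes higher and 176 genes lower in yfp_2838c3. The count stayed between 2141 and 3048 when any 1 of the 3 libraries of yfp_2838c3 was left out. It fell to 51 higher and 37 lower without yfp_2699c4 tumour 3, and to 23 higher and 28 lower without yfp_2699c4 tumour 4, when a single library stood for that clone and was assumed to vary like the others. With 2 libraries of yfp_2699c4, the values below therefore show how these 5 libraries differ.

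The 7 genes that passed in both comparisons, which share libraries, were higher in yfp_2838c3. Dlx1, a homeobox factor of the embryonic forebrain, lies on chromosome 2 at 71528113 to 71533981 (GRCm38). It was at 5.30, 10.4, 13.1 and 15.9 CPM in yfp_2838c3 tumours 1 to 4, against 0, 0.113, 0.0263 and 0.0290 CPM in yfp_2699c4 tumours 1 to 4. The groups did not overlap, and yfp_2699c4 was near 0 in all 4 libraries. In libraries without heart transcripts this was 1406 counts in yfp_2838c3 against 2 counts in yfp_2699c4, a ratio of 484 (exact 95% interval 134 to 4003, which covers counting error only).

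Igf2bp3, an RNA-binding protein of fetal tissue that is re-expressed in many carcinomas, was at 11.5, 42.8, 33.1 and 32.0 CPM in yfp_2838c3, against 1.31, 0.639, 0.974 and 0.552 CPM in yfp_2699c4. Every yfp_2838c3 library was above every yfp_2699c4 library, with yfp_2838c3 tumour 1 the lowest of its clone. The log2 fold change was 5.14 (SE 0.51, adjusted p = 0.0437) over all 8 libraries and 5.49 (SE 0.37, adjusted p = 0.00347) without heart transcripts. Clic6, an intracellular chloride channel protein, was at 98.5, 288.3, 207.9 and 225.2 CPM in yfp_2838c3, against 15.1, 18.2, 7.11 and 7.61 CPM in yfp_2699c4. It was again lower in yfp_2838c3 tumour 1 than in tumours 2 to 4, and in yfp_2699c4 it was higher in the libraries with heart transcripts.

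Matn2, a matrix adaptor protein, averaged 76.5 ± 9.18 CPM in yfp_2838c3 (SD, n = 3) and 16.8 ± 2.39 CPM in yfp_2699c4 (SD, n = 2) in libraries without heart transcripts, a log2 fold change of 2.12 (SE 0.16). The zinc finger gene Zfp334 averaged 40.5 ± 5.96 CPM in yfp_2838c3 and 11.7 ± 0.0888 CPM in yfp_2699c4 (n = 3 and 2), a log2 fold change of 1.73 (SE 0.18). Over all 8 libraries both passed with an adjusted p of 0.0467. A further 2 genes that passed in both are not described here.

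Other genes higher in yfp_2838c3 passed without heart transcripts alone. Kcnab1, a potassium channel beta subunit, was at 82.5, 61.2 and 44.5 CPM in yfp_2838c3 tumours 2 to 4, against 0.500 and 0.494 CPM in yfp_2699c4 tumours 3 and 4 (log2 fold change 6.92, SE 0.43). Slco3a1, an organic anion transporter, was at 80.4, 57.1 and 105.5 CPM in yfp_2838c3, against 1.18 and 0.755 CPM in yfp_2699c4 (log2 6.30, SE 0.38). In the libraries with heart transcripts these genes were closer, with Kcnab1 at 77.2 CPM in yfp_2838c3 tumour 1 and at 16.1 and 47.0 CPM in yfp_2699c4 tumours 1 and 2. The scavenger receptor Scara3 reached 493.4 to 570.5 CPM in yfp_2838c3 and 53.4 to 68.8 CPM in yfp_2699c4, and Tlcd2, Repin1, Habp2 and Scrn1 were 3.74 to 5.24 higher on the log2 scale.

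Among genes lower in yfp_2838c3, Pcdh7, a protocadherin that mediates cell adhesion, lies on chromosome 5 at 57717967 to 58133230. It was at 71.2, 0.521, 0.648 and 0.601 CPM in yfp_2838c3 tumours 1 to 4, against 90.3, 63.4, 153.4 and 182.7 CPM in yfp_2699c4 tumours 1 to 4. Tumour 1 of yfp_2838c3 thus lay close to the yfp_2699c4 libraries, far from the other 3 of its own clone. Without heart transcripts the log2 fold change was -8.20 (SE 0.18, adjusted p = 0.000157), and over all 8 libraries it was -2.77 (adjusted p = 0.424).

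Scarf2, a scavenger receptor of endothelial type, showed the same arrangement, at 98.2, 1.53, 1.32 and 2.24 CPM in yfp_2838c3, against 221.0, 152.8, 398.8 and 394.0 CPM in yfp_2699c4. So did Cacna2d1, a calcium channel subunit, at 19.9, 0.409, 0.360 and 0.355 CPM in yfp_2838c3, against 44.8, 33.4, 74.6 and 51.9 CPM in yfp_2699c4. For these 3 genes the clone difference itself differed between the kinds of library, by 8.07, 6.99 and 6.47 on the log2 scale for Pcdh7, Scarf2 and Cacna2d1 (edgeR interaction test, adjusted p = 0.000646, 0.00209 and 0.0026). They were the 3 genes of 18745 (0.016%) that passed that test, in which 1 library stood for yfp_2838c3 with heart transcripts, and 8 and 16 genes passed without yfp_2838c3 tumour 2 and tumour 4.

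Slc15a2, a peptide transporter, was lower without heart transcripts (log2 fold change -7.83, SE 0.33), as was Tenm3, an adhesion protein of the teneurin family (log2 -4.35, SE 0.23). In yfp_2838c3 tumour 1 they were at 7.29 and 8.41 CPM, above tumours 2 to 4 of that clone. Twist1, a transcription factor of mesenchymal cells, was at 0.447, 0.384 and 0.437 CPM in yfp_2838c3 tumours 2 to 4, against 17.4 and 13.9 CPM in yfp_2699c4 tumours 3 and 4. With heart transcripts it was at 8.25 CPM in yfp_2838c3 tumour 1 and at 14.4 and 11.5 CPM in yfp_2699c4 tumours 1 and 2. The groups without heart transcripts were far apart. The mesenchymal list to which Twist1 belongs had 3 of 20 tested members lower and 0 higher, beside 9.2% and 9.02% of all genes. Its median log2 fold change was -0.01, and 2 of its 3 lower genes lie on chromosomes 11, 12 and 16, which are described below. The intermediate filament Vim, also on that list, averaged 3257 CPM in yfp_2838c3 and 3460 CPM in yfp_2699c4 and was not called (adjusted p = 0.742).

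Trbc1, a constant segment of the T cell receptor beta chain, was at 0.411, 0.223, 0.0960 and 0.164 CPM in yfp_2838c3, against 12.4, 2.67, 18.3 and 15.2 CPM in yfp_2699c4. It was thus higher in the T cell low clone in every library. Cd3e stayed at or below 0.714 CPM in all 8 libraries, and Cd8a at or below 0.393 CPM. The T cell marker list, which does not hold Trbc1, did not follow it. Of its 5 tested members 1 was higher in yfp_2838c3 and 0 lower, beside 9.02% and 9.2% of all genes. The sum of its 12 markers was 4.02, 2.38 and 12.5 CPM in yfp_2838c3 tumours 2 to 4. In yfp_2699c4 tumours 3 and 4 the sum was 1.47 and 1.89 CPM. Cntnap5a, a neurexin-like surface protein, had 1 count in yfp_2838c3 and 1191 counts in yfp_2699c4 without heart transcripts. In the libraries with heart transcripts it was at 0.0893 CPM in yfp_2838c3 tumour 1 and at 15.2 and 2.74 CPM in yfp_2699c4 tumours 1 and 2. The kinase Ak4, the Rac activator Dock4 and the inositol transporter Slc5a3 were lower in yfp_2838c3 without heart transcripts, with log2 fold changes of -5.86, -2.24 and -2.16. In yfp_2838c3 tumour 1 Ak4 was at 12.8 CPM, above tumours 2 to 4 of that clone.

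**Figure D2:**
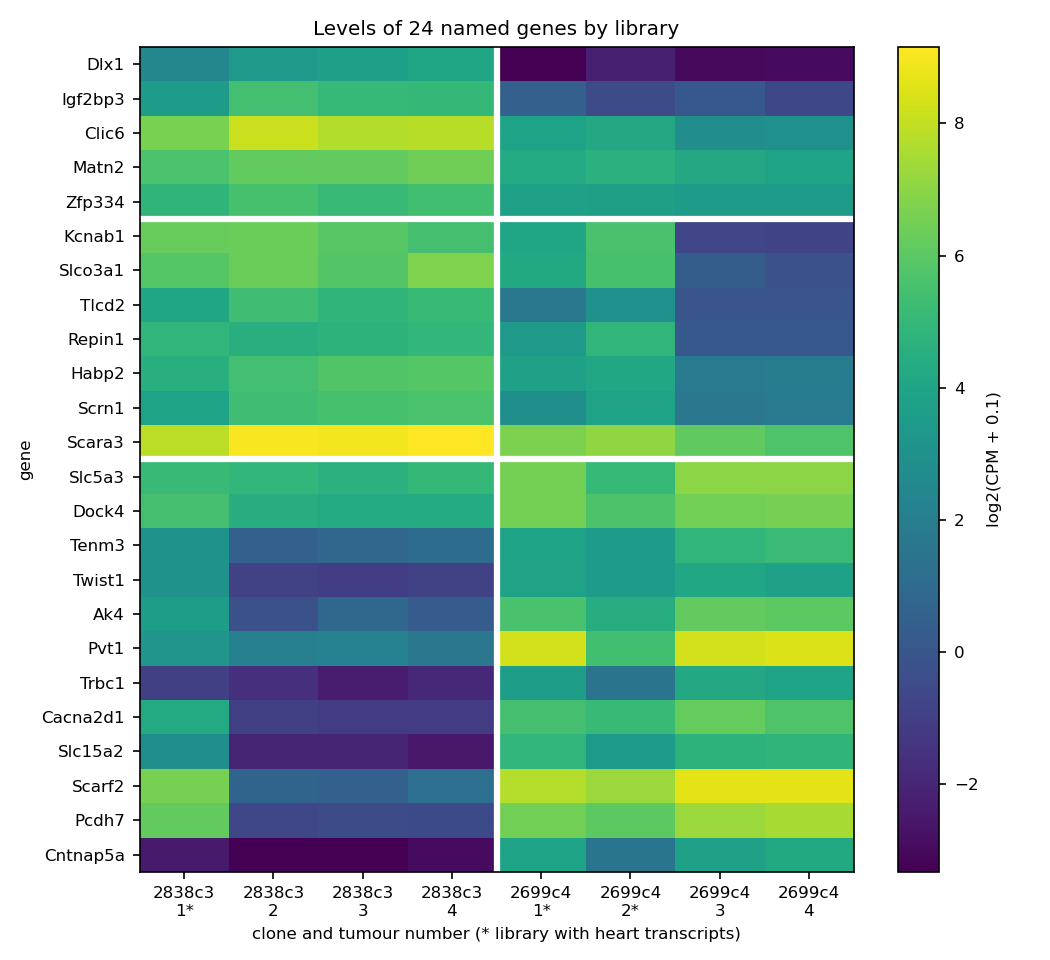
Level of 24 genes (rows) in the 8 libraries (columns, yfp_2838c3 left of yfp_2699c4) as log2(CPM + 0.1), with an asterisk for libraries with heart transcripts. The upper block passed in both comparisons, the middle and lower blocks without heart transcripts, and in the lower block yfp_2838c3 tumour 1 stands nearer to yfp_2699c4 for Pcdh7, Scarf2 and Cacna2d1 than yfp_2838c3 tumours 2 to 4 do.

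Myc and its neighbour Pvt1 were lower in yfp_2838c3. MYC drives transcription of genes for ribosome assembly and growth, and Pvt1 is the long non-coding RNA gene just downstream of it, often gained together with it in tumours. Myc, on chromosome 15 at 61985391 to 61990374, was at 120.8, 74.5, 106.7 and 57.9 CPM in yfp_2838c3 tumours 1 to 4, against 490.6, 161.5, 472.8 and 667.9 CPM in yfp_2699c4 tumours 1 to 4. The groups did not overlap, with yfp_2699c4 tumour 2 the lowest of its clone. The log2 fold change was -2.89 (SE 0.32, adjusted p = 0.0078) without heart transcripts and -2.33 (adjusted p = 0.127) over all 8 libraries.

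Pvt1 was at 9.05, 4.17, 4.61 and 2.95 CPM in yfp_2838c3, against 313.8, 42.15, 319.8 and 361.4 CPM in yfp_2699c4, a log2 fold change of -6.50 (SE 0.27, adjusted p = 0.00129) without heart transcripts. In other clones without heart transcripts Pvt1 was at 4.34 to 8.62 CPM in the high class and at 5.15 to 11.2 CPM in the low class, and Myc at 103.3 to 176.3 and at 96.1 to 206.2 CPM. In libraries without heart transcripts, yfp_2838c3 tumours 2 and 4 lay below these ranges for both genes, tumour 3 lay within them for Myc and within that of the high class for Pvt1, while both yfp_2699c4 libraries lay above them. Around Myc, tested genes were read that start within 3000 kb and averaged at least 5 CPM in either clone without heart transcripts. The other 8 of these were not called, and tested genes at lower levels were not looked at. The 8 had log2 fold changes of -0.16 (Trib1) to 0.98 (Nsmce2), and the nearest of them on the side of Pvt1, Fam49b, was at 0.42.

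**Figure D3:**
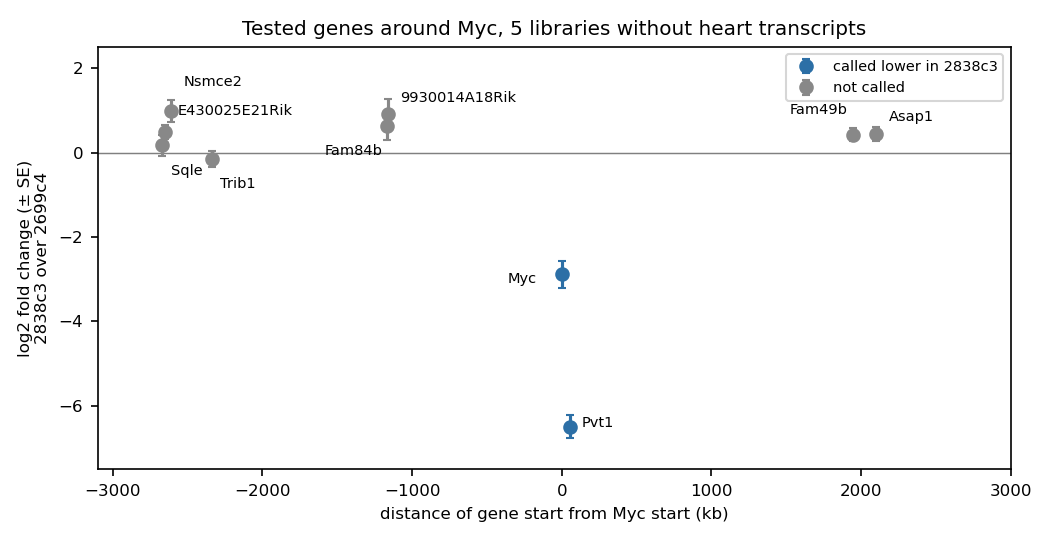
Log2 fold change of yfp_2838c3 over yfp_2699c4 (± SE, 3 against 2 libraries without heart transcripts) for the 10 tested genes around Myc, by distance of their start from that of Myc in kb. Myc and Pvt1 are the 2 genes called, both lower in yfp_2838c3, and the other 8 lie between -0.16 and 0.98.

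Of 24 genes of the MYC network and ribosome assembly, 13 were lower, 2 higher and 9 not called in yfp_2838c3, beside 9.2% of all genes lower, and their median log2 fold change was -0.74 against 0.02 over all genes tested. Npm1, a nucleolar chaperone, averaged 826 ± 80.4 CPM in yfp_2838c3 (SD, n = 3) and 1858 ± 14.1 CPM in yfp_2699c4 (SD, n = 2). Odc1, which makes polyamines and is a direct MYC target, averaged 217 ± 18.9 and 557 ± 84.8 CPM in yfp_2838c3 and yfp_2699c4. The 2 higher members were relatives of MYC. Mycn was at 26.5, 61.2 and 96.4 CPM in yfp_2838c3 tumours 2 to 4, against 6.87 and 2.64 CPM in yfp_2699c4 tumours 3 and 4 (log2 3.599, SE 0.69, adjusted p = 0.0233), and Mycl rose by 1.74 on the log2 scale. Of the 13 lower genes, 5 lie on chromosomes 11, 12 and 16, which are described below.

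Beside 9.02% of all genes higher and 9.2% lower, 4 of 26 proliferation genes were lower and 0 higher, among them Rrm2, a subunit of ribonucleotide reductase (log2 -1.91), and cyclin E1, Ccne1 (log2 -2.06). Of 25 genes of cholesterol and fatty acid synthesis, 6 were lower and 0 higher, among them Hmgcs1 (log2 -1.10), Fasn (log2 -1.51) and Acly (log2 -1.29). The glycolysis and hypoxia list had 0 of 28 members called and a median log2 fold change of -0.45. An unadjusted p under 0.05 was reached by 4 of these 28, beside 5537 of all 15782 genes tested. Chromosomes 11, 12 and 16 held 3 of the 4 proliferation genes and 3 of the 6 lipid genes.

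The share of genes called in each direction differed between chromosomes. Genes of chromosome 12 were lower in yfp_2838c3 in 43.7% of 536 tested, with a median log2 fold change of -0.78. On chromosome 16 the share was 37.1% of 502 (median -0.71), and on chromosome 11 it was 22.6% of 1316 (median -0.41). Together these 3 chromosomes held 717 of the genes called lower, 30.5% of their 2354 tested genes, against 725 lower calls or 5.48% on the other chromosomes. Chromosome 14 went the other way, with 23.5% of 545 genes higher in yfp_2838c3 (median 0.52). Parts of other chromosomes did so as well. A run of 100 tested genes on chromosome 2 (163623272 to 173278428), which holds Zfp334, had 21 higher (median 0.55). A run of 100 on chromosome 17 (57249455 to 84466205) had 22 higher (median 0.49).

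Read against the libraries of other clones without heart transcripts, each library of a clone gave a similar value. For each library, the log2 level of each gene was set against its median over those other libraries. The library's own median over all tested genes with a chromosome was then subtracted. On this scale chromosome 12 genes had a median of -0.22, -0.11 and -0.18 in yfp_2838c3 tumours 2 to 4, against 0.43 and 0.44 in yfp_2699c4 tumours 3 and 4. For chromosome 11 it was -0.23 in each of these 3 yfp_2838c3 libraries, against 0.10 and 0.09 in yfp_2699c4. For chromosome 16 it was -0.09, -0.06 and -0.02 in yfp_2838c3, against 0.51 and 0.50 in yfp_2699c4. For chromosome 14 it was 0.30, 0.28 and 0.28 in yfp_2838c3, against -0.13 and -0.12 in yfp_2699c4. On this scale chromosomes 11, 12 and 16 were thus negative in yfp_2838c3 and positive in yfp_2699c4, and chromosome 14 was the reverse. The yfp_2838c3 values of chromosome 16 were small. Chromosomes 4, 7 and 10 were lower in each of these libraries, with chromosome 4 at -0.14, -0.13 and -0.11. In yfp_2699c4 chromosome 13 was higher than chromosome 11, at 0.29 and 0.24. In libraries with heart transcripts the median differences were smaller, at -0.23 for chromosome 12, -0.18 for chromosome 16 and 0.05 for chromosome 14.

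**Figure D4:**
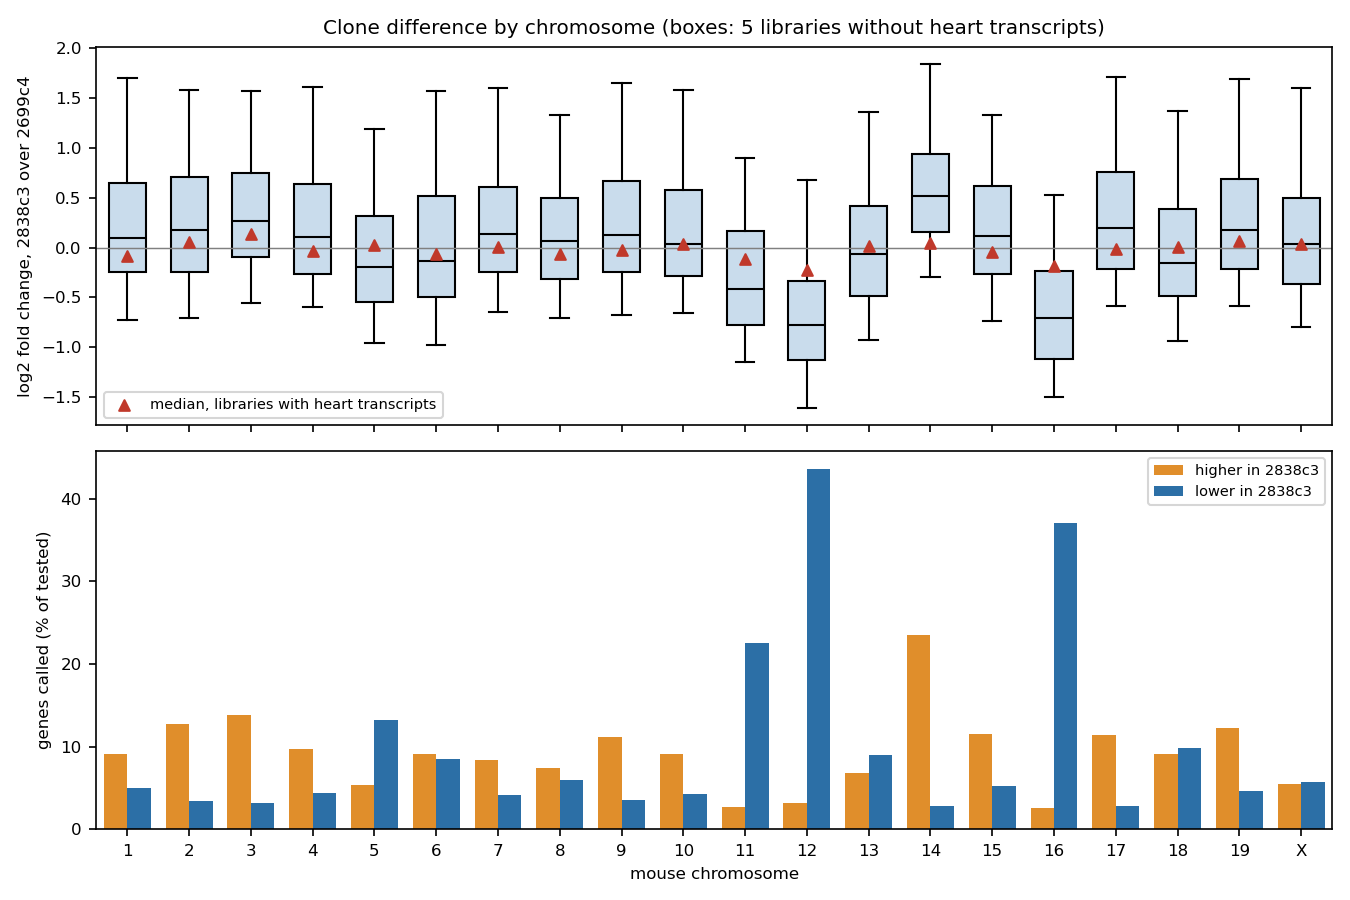
Upper panel, log2 fold change of yfp_2838c3 over yfp_2699c4 in the 5 libraries without heart transcripts for tested genes of each chromosome (box, quartiles and median; whiskers, 10th to 90th percentile), with triangles for the median in the 3 libraries with heart transcripts. Lower panel, percent of tested genes called higher or lower in yfp_2838c3, where lower calls reach 43.7% on chromosome 12 and 37.1% on chromosome 16.

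Xist, the RNA that coats the inactive X chromosome of female cells, was at 1232, 2313, 1771 and 2533 CPM in yfp_2838c3, against 69.0, 164.6, 9.55 and 20.04 CPM in yfp_2699c4. All 4 libraries of yfp_2838c3 were above all 4 of yfp_2699c4, and the log2 fold change without heart transcripts was 7.16 (SE 0.47, adjusted p = 0.00347). The Y-linked gene Ddx3y was at 32.1, 0, 0 and 0 CPM in yfp_2838c3, against 16.5, 42.3, 0.447 and 0.0290 CPM in yfp_2699c4. It was thus above 1 CPM in the libraries with heart transcripts alone. Of 6 genes known to escape X inactivation, Kdm6a was called higher and the other 5 were not called, beside 9.02% of all genes higher. Kdm6a was at 85.6 ± 2.63 CPM in yfp_2838c3 (SD, n = 3) and 36.0 ± 1.20 CPM in yfp_2699c4 (SD, n = 2).

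Complement genes were higher in yfp_2838c3. The complement system is a cascade of secreted proteases that marks cells for clearance, held back by regulators such as factor I, and many epithelial tumours make parts of it. Of 16 tested genes, 10 were higher, 1 lower and 5 not called, beside 9.02% of all genes higher, with a median log2 fold change of 2.48. Their summed level was 17175 to 17836 CPM in yfp_2838c3 and 3640 to 4158 CPM in yfp_2699c4 without heart transcripts. Most of it was clusterin, Clu, a secreted chaperone that also blocks the terminal complex, at 6995, 16366, 16760 and 14358 CPM in yfp_2838c3 tumours 1 to 4, against 4620, 4766, 3945 and 3537 CPM in yfp_2699c4 tumours 1 to 4.

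Among the proteases and regulators, Cfi was at 302, 384 and 642 CPM in yfp_2838c3, against 59.2 and 24.1 CPM in yfp_2699c4 (log2 3.33, SE 0.52, adjusted p = 0.0147). C3, the central component, was at 381, 490.1 and 1532 CPM in yfp_2838c3, against 115 and 43.5 CPM in yfp_2699c4 (log2 3.23, SE 0.78). In the libraries with heart transcripts C3 was at 2577 CPM in yfp_2838c3 and at 1429 and 3531 CPM in yfp_2699c4, so the clones overlapped there. C1s and C1ra showed the same overlap, and Hc, complement component 5, was lower in yfp_2838c3 (log2 -3.46). Macrophages and liver also make C3 and C1s. Without yfp_2838c3 tumour 4 the list had 10 higher and 1 lower, and Alb was at 9.98 and 14.8 CPM in yfp_2838c3 tumours 2 and 3. The part of macrophage and liver RNA in these levels was not tested.

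Targets of YAP and TEAD, the transcriptional arm of the Hippo pathway that senses cell contact and stretch, had 7 of 18 members higher and 0 lower, beside 9.02% and 9.2% of all genes, with a median log2 fold change of 0.42. Ctgf, the standard target, averaged 242.5 ± 32.2 CPM in yfp_2838c3 (SD, n = 3) and 50.4 ± 0.0669 CPM in yfp_2699c4 (SD, n = 2), a log2 fold change of 2.20 (SE 0.15, adjusted p = 0.00357). In libraries with heart transcripts it was at 661 CPM in yfp_2838c3 and at 272 and 764 CPM in yfp_2699c4, so the clones overlapped. Ptpn14, Amotl2, Arhgef17, Ajuba, Crim1 and Lats2, all tied to Hippo signalling, rose by 0.66 to 1.79 on the log2 scale.

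Of 24 genes of the TGF-beta pathway, 8 were higher and 0 lower, beside 9.02% of all genes higher and 9.2% lower, the background for the lists that follow as well. They included the ligands Tgfb2 (log2 1.84), Bmp4 (log2 2.92) and Bmp2 (log2 1.15), and both receptors Tgfbr1 (log2 0.76) and Tgfbr2 (log2 1.23). Bmp7 had 130 counts in yfp_2838c3 and 0 in yfp_2699c4 without heart transcripts. Against a floor of 3 counts over the group this was 29.9-fold higher, and the exact 95% interval of the ratio began at 23.9. Tgfb1 itself was not called, at 207.0, 110.2 and 119.7 CPM in yfp_2838c3 and 145.1 and 143.6 CPM in yfp_2699c4.

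In the Wnt pathway 6 of 25 members were higher and 2 lower. The ligand Wnt4 was at 27.4, 113.3 and 49.5 CPM in yfp_2838c3, against 0.711 and 0.203 CPM in yfp_2699c4, and the feedback gene Axin2 and the stem cell receptor Lgr5 were 4.90 and 3.13 higher on the log2 scale. Tcf7 and Rnf43, both on chromosome 11, were lower (log2 -1.77 and -1.08). The FGF receptor Fgfr3 was at 21.3, 34.02 and 103.0 CPM in yfp_2838c3, against 0.447 and 0.261 CPM in yfp_2699c4.

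The Notch pathway had 2 of 17 members higher, a share near the 9.02% of all genes, and 4 lower, beside 9.2%. The receptor Notch1 was higher (log2 1.68), while the ligand Jag2 (log2 -2.38), the receptor Notch4 (log2 -1.73), the DNA-binding partner Rbpj (log2 -1.75) and the coactivator Maml1 (log2 -0.67) were lower. Of these 4 lower genes, 2 lie on chromosomes 11, 12 and 16, where 30.5% of tested genes were lower. Retinoid genes had 5 of 14 higher and 0 lower, among them the carrier Rbp4 (log2 1.59) and the vitamin A importer Stra6 (log2 2.92). Of the axon guidance genes, which also steer epithelial cells, 6 of 26 were higher and 1 lower, with Robo1 at 29.9, 20.01 and 53.1 CPM in yfp_2838c3 and 3.79 and 3.14 CPM in yfp_2699c4.

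Of 17 factors of pancreas and foregut identity, 2 were higher and 3 lower, beside 9.02% and 9.2% of all genes. Pdx1, the pancreatic homeobox factor, was at 11.6, 8.97, 12.2 and 15.96 CPM in yfp_2838c3, against 38.9, 21.8, 72.6 and 54.5 CPM in yfp_2699c4, and the groups did not overlap. Foxa1, a pioneer factor of endoderm, was at 6.14, 2.79, 5.64 and 4.04 CPM in yfp_2838c3, against 37.3, 17.2, 52.2 and 46.1 CPM in yfp_2699c4 (log2 -3.62, SE 0.31, adjusted p = 0.00551 without heart transcripts). The intestinal factor Cdx2 was lower as well (log2 -4.42, SE 0.98), and Gata4 was higher (log2 1.02, SE 0.13).

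Epithelial junction genes had 5 of 27 members higher and 3 lower. Desmoplakin, Dsp, which anchors keratin filaments at desmosomes, was at 672, 679 and 978 CPM in yfp_2838c3, against 134 and 107 CPM in yfp_2699c4 (log2 2.61, SE 0.23, adjusted p = 0.00581). The tight junction claudins Cldn3 and Cldn4 were lower (log2 -3.40 and -2.78). Cdh1, which encodes E-cadherin, was at 952, 963 and 1220 CPM in yfp_2838c3 and 752 and 576 CPM in yfp_2699c4 and was not called (adjusted p = 0.0907).

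Chemokines that attract myeloid cells did not move as a group. Of 22 tested ligands of CXCR2 and other myeloid attractants, 2 were lower, 0 higher and 20 not called, a share of lower genes close to the 9.2% of all genes. Cxcl1, a neutrophil attractant, was at 17.1, 0.633, 0.456 and 0.874 CPM in yfp_2838c3, against 82.5, 25.6, 19.2 and 25.7 CPM in yfp_2699c4. Without heart transcripts it differed by -5.16 on the log2 scale (SE 0.34, adjusted p = 0.00347). In yfp_2838c3 tumour 1 it was close to the lower yfp_2699c4 libraries. Csf3, which encodes G-CSF, was lower too (log2 -3.34, SE 0.61, adjusted p = 0.0199), at 4.12 CPM or less in every library.

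The neighbouring CXCR2 ligands were not called. Cxcl2 was at 35.1, 8.64, 6.09 and 11.9 CPM in yfp_2838c3, against 29.5, 29.3, 5.34 and 5.95 CPM in yfp_2699c4, and Cxcl5 had a log2 fold change of 0.77 (adjusted p = 0.133). Because Cxcl1 and Cxcl2 lie side by side and differed in this respect, their promoters are shown (RefSeq, GRCm38.p6, plus strand), with matches to the NF-kappaB consensus (searched on both strands) in capitals. The Cxcl1 sequence spans chr5:90890995-90891294 and that of Cxcl2 spans chr5:90903649-90903948, each from 250 bases before to 50 bases after the gene's start.
Cxcl1: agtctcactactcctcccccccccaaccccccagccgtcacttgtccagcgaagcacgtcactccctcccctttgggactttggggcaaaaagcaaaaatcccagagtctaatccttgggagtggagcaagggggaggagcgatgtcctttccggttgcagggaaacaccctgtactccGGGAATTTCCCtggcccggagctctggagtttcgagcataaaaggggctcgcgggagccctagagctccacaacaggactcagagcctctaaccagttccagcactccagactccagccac
Cxcl2: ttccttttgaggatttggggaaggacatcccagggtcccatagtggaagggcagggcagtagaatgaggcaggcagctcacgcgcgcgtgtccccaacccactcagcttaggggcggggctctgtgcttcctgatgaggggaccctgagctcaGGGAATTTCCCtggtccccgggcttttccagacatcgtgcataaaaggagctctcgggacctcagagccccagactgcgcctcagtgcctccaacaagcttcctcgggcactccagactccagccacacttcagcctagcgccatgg
Each promoter held 2 overlapping matches, 1 per strand, in 1 stretch of the same letters. Of 32851 promoters of this length, 8.46% held a match on either strand. A match is a description of the sequence.

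Other attractants and immune mediators gave mixed values. Csf1 (log2 1.31, adjusted p = 0.0613), Ccl2 (log2 2.66, adjusted p = 0.0552) and Csf2 (log2 -1.60, adjusted p = 0.199) were not called. Of 19 genes of prostaglandin and adenosine metabolism, 5 were higher and 2 lower. Ptgs2, the inducible cyclooxygenase, was at 48.6, 19.3 and 19.0 CPM in yfp_2838c3, against 94.8 and 171.0 CPM in yfp_2699c4 (log2 -2.24, SE 0.51, adjusted p = 0.0357). Its constitutive relative Ptgs1 was higher (log2 1.40), as were the prostaglandin transporter Slco2a1 (log2 2.26) and the degrading enzyme Hpgd (log2 3.64). Among attractants of lymphocytes, 1 of 15 was higher, the membrane-bound chemokine Cx3cl1, at 196, 137 and 213 CPM in yfp_2838c3, against 74.3 and 48.5 CPM in yfp_2699c4.

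The lists of antigen presentation and interferon response had at most 2 members called by edgeR. Of 30 interferon-response genes, 0 were called by edgeR, 3 had an unadjusted p under 0.05, and DESeq2 called 2 higher. Over all 15782 genes tested, 5537 had an unadjusted p under 0.05, and DESeq2 called 2373 higher and 2109 lower. These are larger shares than in this list or among the checkpoint ligands below. The MHC class I list had 2 of 22 members higher, a share near the 9.02% of all genes, and 0 lower. In that list 6 members had an unadjusted p under 0.05, and DESeq2 called 4 higher and 1 lower. The class II list had 0 of 9 called, with 0 at an unadjusted p under 0.05 and 0 by DESeq2. The heavy chain gene H2-K1 was at 351.6, 383.1 and 1389 CPM in yfp_2838c3, against 518.5 and 260.0 CPM in yfp_2699c4, and Tap1, the peptide transporter, at 16.3, 19.7 and 80.9 CPM in yfp_2838c3, against 28.1 and 7.46 CPM in yfp_2699c4. In both genes yfp_2838c3 tumour 4 was the highest library. Without it the median log2 fold change was -0.10 for the interferon list and -0.12 for the class II list, against 0.80 and 1.62 with it. Checkpoint ligands had 0 of 16 called by edgeR and 3 at an unadjusted p under 0.05, while DESeq2 called 2 higher and 1 lower, and Cd274, which encodes PD-L1, was at 8.003, 4.10 and 15.7 CPM in yfp_2838c3 and 7.47 and 4.41 CPM in yfp_2699c4.

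**Figure D5:**
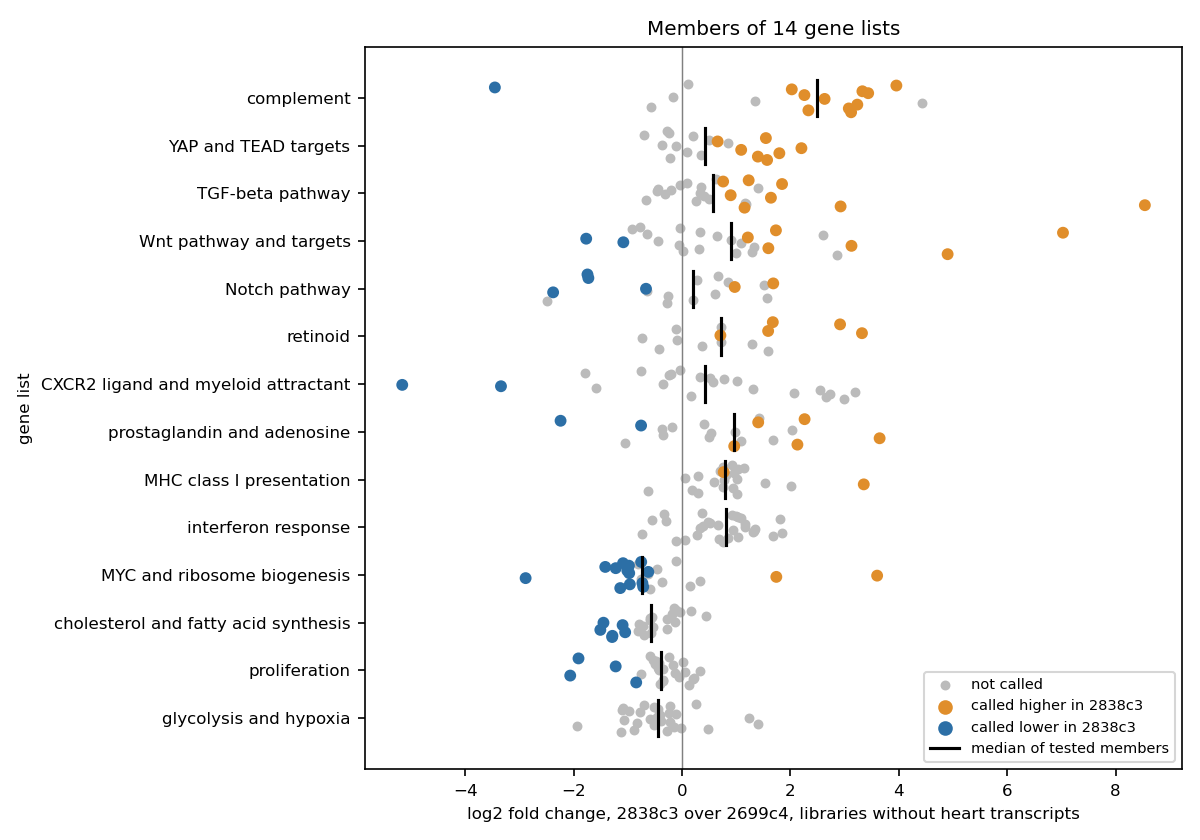
Log2 fold change of yfp_2838c3 over yfp_2699c4 in the 5 libraries without heart transcripts for each tested member of 14 gene lists (1 point per gene), coloured where called, with a black bar at the list's median. Complement genes lie to the right, with a median of 2.48 and 10 called higher, and MYC and ribosome genes to the left, with a median of -0.74 and 13 called lower.

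The cystine transporter Slc7a11, which feeds glutathione synthesis, was at 41.7, 28.0, 12.7 and 15.5 CPM in yfp_2838c3, against 191.9, 58.7, 224.6 and 260.8 CPM in yfp_2699c4, with no overlap. Inflammatory caspase Casp4 (log2 4.76) and the pore-forming Gsdmd (log2 1.33) were higher, and 4 of 22 death receptor and apoptosis genes were higher and 1 lower. The basement membrane proteins Agrn (log2 1.29) and Lamc1 (log2 0.81) were higher, and the stromelysin Mmp3 and collagenase Mmp13 were lower (log2 -3.26 and -2.75). The cell cycle inhibitor Cdkn1c was at 0.0744, 0.144 and 0.410 CPM in yfp_2838c3, against 16.9 and 15.9 CPM in yfp_2699c4.

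Of 18 integrins, 2 were higher and 2 lower, shares near the 9.02% and 9.2% of all genes. Among them was Itgb6, the partner of the alpha-v subunit in activating latent TGF-beta, at 3.72, 8.92 and 10.5 CPM in yfp_2838c3, against 0.132 and 0.116 CPM in yfp_2699c4. Itga3, a laminin receptor subunit, went the other way, at 542.5, 366.3 and 301.3 CPM in yfp_2838c3, against 1183 and 1301 CPM in yfp_2699c4. Of 22 duct and gut secretory genes, 3 were higher and 1 lower, beside the same shares. The membrane mucin Muc1 was at 302.6, 379.6 and 494.8 CPM in yfp_2838c3, against 134.4 and 76.3 CPM in yfp_2699c4, and Agr2, which folds mucins, was at 0.576 CPM or less in yfp_2838c3, against 16.9 and 8.80 CPM in yfp_2699c4.

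Among 33 genes of the NRF2 and glutathione list, to which Slc7a11 belongs, 3 were higher and 3 lower. Gclm, a subunit of the enzyme that starts glutathione synthesis, was higher (log2 0.88, SE 0.13), and the glutathione transferase Gstp1 was lower (log2 -0.76, SE 0.12). Of 17 Eph receptors and ephrins, 2 were higher and 1 lower, the receptor Ephb2 (log2 -3.53, SE 0.72). The fatty acid carrier Fabp4, an adipocyte marker, was at 1.79, 2.54 and 2.32 CPM in yfp_2838c3, against 92.9 and 64.8 CPM in yfp_2699c4, while the adipocyte marker Cidec was higher in yfp_2838c3 (log2 1.20).

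The counts of these lists rested on having both yfp_2699c4 libraries. Without tumour 3 of yfp_2699c4, 0 members of the complement, YAP and TEAD, TGF-beta, Wnt, Notch, retinoid and MYC lists were called, and without tumour 4 likewise 0. Their medians kept their sign, with the complement median at 2.82 and 2.13 and the MYC median at -0.69 and -0.72 without tumour 3 and without tumour 4. Over all 8 libraries 0 members of these lists were called, beside 0.0444% of all genes. There the median was 0.14 for complement, -0.12 for Wnt and -0.37 for Notch, against 2.48, 0.91 and 0.19 without heart transcripts. The medians of the YAP and TEAD, TGF-beta, retinoid and MYC lists kept their sign there.

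Libraries with heart transcripts, which the comparison without them did not use, gave the same directions more weakly. In a fit of all 8 libraries by kind, 76.5% of the 1423 genes called higher had a positive fold change in the libraries with heart transcripts, and 12.3% of the 1452 genes called lower had one, beside 47.7% of all genes. The median log2 fold changes there were 0.19 for the higher and -0.30 for the lower genes.

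Genes called between yfp_2838c3 and yfp_2699c4 were next read in other clones of the same classes. The 5 other high and 7 other low clones with a library without heart transcripts were used, with counts summed per clone. Of 1376 genes called higher in yfp_2838c3 and tested there, 43.0% were higher in the other high clones, with a median log2 fold change of -0.10. Of 1394 genes called lower, 44.3% were higher in the other high clones (median -0.04), beside 50.6% of all 15197 genes. The other clones gave 11 genes higher (0.0702% of 15672) and 14 lower (0.0893%) in the high class, counts that summed to between 0 and 178 when any 1 of those clones was left out. Of these 25, called in the same direction in yfp_2838c3 against yfp_2699c4 were Dusp18, a phosphatase, and Tex2, a lipid transfer protein, both on chromosome 11 and both lower, and 1 gene was called in the opposite direction. For the genes named above the other clones gave a log2 difference of 0.01 for Myc, -0.21 for Pvt1, -1.24 for Dlx1, 0.35 for Clu and -1.18 for Cxcl1, and none of these 5 was called there.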

How the data were processed

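The deposited table holds raw counts per gene, 1 column per library, for 39 libraries of sorted tumour cells, of which 8 are compared here. The authors made these counts with STAR and featureCounts on mm10, per the submitters' processing notes, and versions, annotation release and strand setting are not given in those notes. Reads of overlapping or antisense genes, and of near-identical families such as the H2 genes, may thus be assigned uncertainly. Of 39017 gene IDs, 37693 were matched to GENCODE release M21 (GRCm38), which gave names and positions, and 214 symbols occurred more than once, for which the ID with the highest total was used.

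Counts were tested in edgeR 4.0.16 (R 4.3.3; limma 3.58.1 and DESeq2 1.42.0 for alternatives) with filterByExpr by clone, TMM scaling and the robust quasi-likelihood test, adjusted by Benjamini-Hochberg over all genes tested, with a threshold of 0.05. CPM are counts scaled to a library total of 1e+06, and totals were 7638130 to 55997777. Libraries with a summed Myh6, Myh7, Myl2 and Mb of 10 CPM or more are those called libraries with heart transcripts. Exact 95% intervals and the floor of 3 counts cover counting error only. The procedure was also run on simulated counts. These were drawn independently for each gene, without chromosome-wide clone differences or unequal tissue RNA, so they do not check the calls made here. An interaction of clone and library kind, and other high against other low clones with counts summed per clone, were fitted in the same way. No 2 libraries agreed within sampling noise.

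The members and the 50 gene lists were chosen with earlier results of these data known. The genes described are those with the smallest p in each direction among genes at 5 CPM or more, up to 4 members per list, all members of short lists, and preset immune and tumour genes. For the first of these, higher genes had to pass both comparisons. Since 0 genes were lower over all 8 libraries, lower genes had to pass the comparison without heart transcripts alone. Scrn1, Repin1, Tlcd2, Habp2, Slco3a1, Scara3 and Kcnab1, further list members such as Cfi, C3, Mycn, Cdx2 and Fabp4, the genes around Myc, and the list of genes escaping X inactivation were chosen after their values were seen. Some genes that the rule selects are not reported here.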

Additional observations from a re-analysis of the deposited data

Results flagged for a closer look

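In clone yfp_2838c3 the value of tumour 1, the library with heart transcripts, stood apart from the other 3 for 9 genes and 3 marker sums. It was 71.2 CPM for Pcdh7, 98.2 CPM for Scarf2, 19.9 CPM for Cacna2d1, 7.29 CPM for Slc15a2, 8.41 CPM for Tenm3, 8.25 CPM for Twist1, 44.4 CPM for Dock4, 12.8 CPM for Ak4 and 17.1 CPM for Cxcl1. The sums were 4789 CPM for 10 heart genes, 11630 CPM for liver genes and 464.1 CPM for skeletal muscle genes, of which the heart sum holds the genes that set this library apart by rule. In the same clone, tumour 4 stood apart with H2-K1 at 1389 CPM, Tap1 at 80.9 CPM and Irf1 at 104.9 CPM, the library that also had the most macrophage transcripts among those without heart transcripts. The part of those transcripts in these levels was not tested.

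In clone yfp_2699c4, tumour 2 stood apart with Pvt1 at 42.15 CPM, Slc15a2 at 10.9 CPM and Dock4 at 50.6 CPM. Tumour 1 stood apart with Cxcl1 at 82.5 CPM, and tumour 3 with Cxcl9 at 22.7 CPM and H2-K1 at 518.5 CPM. A library stood apart where its gap to the nearest other, divided by the range of the 4, exceeded the critical value of Dixon's test at 95%. Of 130 sets of 4 values looked at, 21 met this. Chance gives about 1 in 20 for values not chosen beforehand, which does not apply here, since many of these genes were chosen for a small p over tumours 2 to 4 of yfp_2838c3.

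The clone difference itself differed between the libraries with and without heart transcripts by 8.07 for Pcdh7, 6.99 for Scarf2 and 6.47 for Cacna2d1 on the log2 scale (edgeR interaction test, adjusted p = 0.000646, 0.00209 and 0.0026). A single library of yfp_2838c3 had heart transcripts, so these differences rest on it.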

How the results depend on the processing

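Without heart transcripts the count of 2875 genes stayed within 1.5 times under RLE scaling, library totals, no filter, a filter at 5 CPM, a heart limit of 1 CPM, limma-voom and a spread shared with the other clones (2512 to 2966). It was 4482 with DESeq2, 370 against a log2 fold change of 1 (glmTreat), 433 at a threshold of 0.01, and 51 to 3048 with a library left out. Over all 8 libraries the 7 genes became 1269 with DESeq2, 2 with library totals or the 5 CPM filter, 1 with library kind as a block, 0 with limma-voom, glmTreat or a threshold of 0.01, and 0 to 1148 with a library left out. The interaction gave 420 genes with DESeq2, 83 with no filter and 3 to 16 with a library left out. Among other clones the 25 genes became 679 with DESeq2, 6 with all libraries, 7 with no filter and 0 to 178 with a clone left out. No direction reversed among 128 described genes that were called, and 28 and 24 of them kept their call without tumour 3 or tumour 4 of yfp_2699c4.

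Equal tumour numbers did not pair the libraries, with correlations of deviations of 0.732, -0.715, 0.609 and 0.209. With the number as a replicate block, 0 genes passed over all 8 libraries and 2840 without heart transcripts. Where 1 library stands for a clone, it is assumed to vary like the others. Genes with few counts in the yfp_2699c4 library of 7638130 counts are the least precise.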
